A study of Hordeum vulgare with 12 samples.

Results

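The ubiquitin gene cluster on barley chromosome 2H is described here as 3 genes, HORVU.MOREX.r3.2HG0195850, HORVU.MOREX.r3.2HG0195860 and HORVU.MOREX.r3.2HG0195920, out of 81687 genes in the count table. They are called 2HG0195850, 2HG0195860 and 2HG0195920 from here on. The members were taken by identifier. 2HG0195860 carries the description Ubiquitin and 2HG0195920 the description UBiQuitin family member in the study's annotation, and 2HG0195850 was included because its number stands directly before that of 2HG0195860. No description of 2HG0195850 was found in the sources used here. It stands with the other members in a peptide metabolic process list that the study drew from genes higher in mock-treated *hvatr.g*, but nothing in these sources names it a ubiquitin gene. The choice was made with the genotype and zeocin differences of these genes already known, so every value of a member below is a description and carries no test.

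Ubiquitin is a small, highly conserved protein that is joined to other proteins by the successive action of a ubiquitin-activating enzyme (E1), a ubiquitin-conjugating enzyme (E2) and a ubiquitin ligase (E3). Chains of ubiquitin mark proteins for the proteasome, and other forms of the mark act in signalling, including the response to damaged DNA. Plants encode ubiquitin in several genes, either as head-to-tail repeats that are cut into single units (polyubiquitin genes) or fused to a ribosomal protein. Near-identical copies are therefore common, and short reads may fit more than one of them.

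RNA-seq was made from root apices of 7-day-old barley, with poly(A) RNA and 3 biological replicates in each of 4 groups. The wild type (WT) was *cv.* Sebastian. The mutant, *hvatr.g*, carries a TILLING (chemically induced) allele of *ATR*, the kinase ATAXIA TELANGIECTASIA MUTATED AND RAD3-RELATED, in the Sebastian background, and is 1 mutant line. Plants of both genotypes were kept for 6 h in liquid medium with 0 (mock) or 500 µg/ml zeocin, a bleomycin-type antibiotic that breaks DNA strands.

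The 12 libraries held 36100439 to 74699245 counts, a ratio of 2.07. The largest was replicate 1 of mock-treated *hvatr.g*. Of 81687 genes, 26039 had enough counts to test, among them all 3 cluster genes. *ATR* itself (HORVU.MOREX.r3.7HG0748510) stood between 9.67 and 20.5 CPM (counts scaled to library size with edgeR's TMM factors) over all libraries. A TILLING allele need not change the transcript level, so this does not check the genotype labels. The mitotic genes *CYCB1;2.C* and *CDKB2;2*, which mark dividing cells of the apex, were detected in every library, with at least 138 and 192 counts. The samples are bulk tissue, so fewer cells of a type and less RNA per cell cannot be told apart. A permutation of 3 libraries against 3 cannot give an exact p below 0.1.

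All 3 genes were near the detection limit in Sebastian and abundant in *hvatr.g*. In mock-treated plants, the mean level in *hvatr.g* was 737 times the WT mean for 2HG0195850, 504 times for 2HG0195860 and 339 times for 2HG0195920. In the mutant the mean level after zeocin was lower than after mock treatment, by 2.18 to 4.37 times.

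For 2HG0195850, the 3 mock-treated WT libraries held 4, 24 and 36 counts and the zeocin-treated WT libraries 49, 48 and 26 counts. The mock-treated *hvatr.g* libraries held 21106, 22500 and 24832 counts, and the zeocin-treated ones 9693, 5686 and 9757 counts. Each *hvatr.g* library thus held more counts of this gene than all WT libraries together. On the CPM scale the WT means were 0.578 ± 0.440 after mock treatment and 1.12 ± 0.399 after zeocin, and the *hvatr.g* means 426 ± 159 and 195 ± 50.2 (SD, n = 3).

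2HG0195860, the gene described as Ubiquitin, had 9, 3 and 9 counts in WT after mock treatment and 6, 8 and 3 counts after zeocin. The *hvatr.g* libraries had 3579, 5198 and 5537 counts after mock treatment and 1173, 523 and 1180 counts after zeocin. No WT library reached 10 counts, whereas no *hvatr.g* library was below 523. The mean WT levels were 0.181 ± 0.0840 CPM (mock) and 0.155 ± 0.0731 CPM (zeocin), and those of *hvatr.g* 91.0 ± 42.7 CPM (mock) and 22.2 ± 8.22 CPM (zeocin), each as the SD with n = 3.

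2HG0195920, the gene described as a ubiquitin family member, had 10, 17 and 4 counts in WT after mock treatment and 15, 6 and 8 counts after zeocin. In *hvatr.g* it had 3664, 5210 and 5780 counts after mock treatment and 1177, 300 and 1310 counts after zeocin. Its counts were close to those of 2HG0195860 in 5 of the 6 mutant libraries. The exception was replicate 2 of zeocin-treated *hvatr.g*, which was the lowest mutant library for all 3 genes. Its mean in WT was 0.276 ± 0.188 CPM after mock treatment and 0.263 ± 0.138 CPM after zeocin, and in *hvatr.g* 93.4 ± 45.0 and 21.4 ± 12.8 CPM (SD, n = 3).

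**Figure D1:**
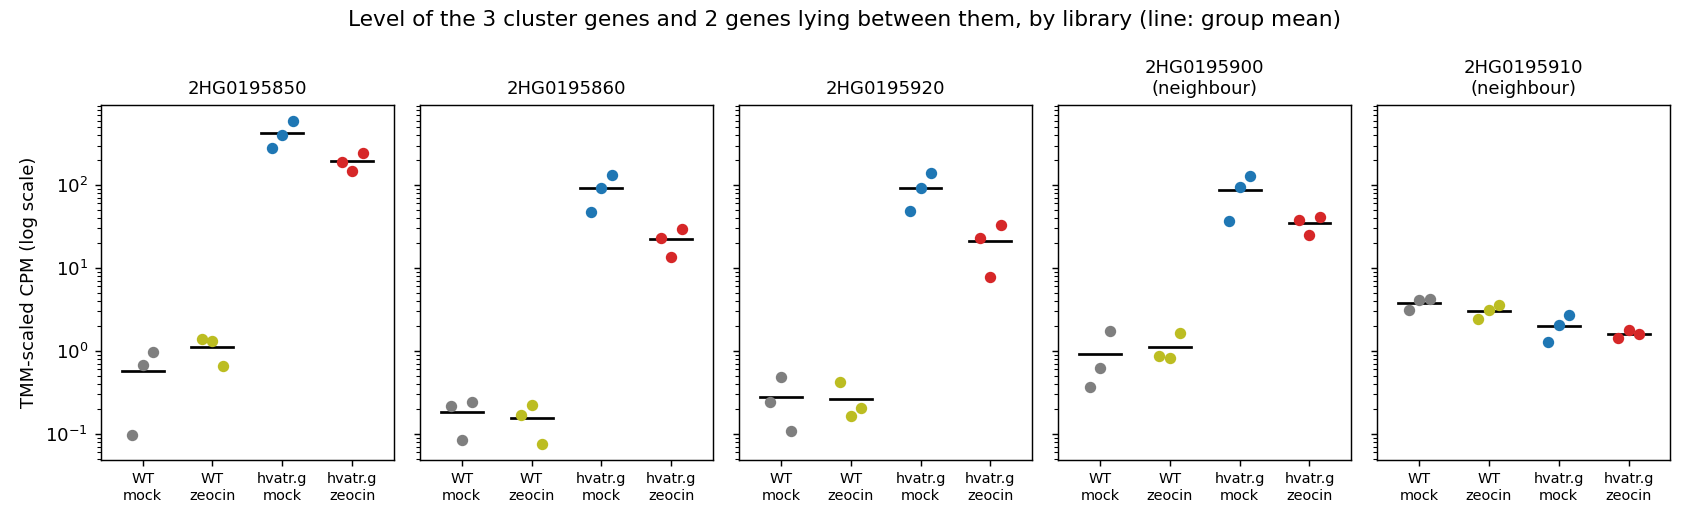
TMM-scaled CPM on a log axis in each of the 12 libraries (points; lines are group means) for the 3 cluster genes and for 2HG0195900 and 2HG0195910, which lie between them. For the cluster genes every *hvatr.g* library lies above every WT library, while 2HG0195910 is lower in *hvatr.g*.

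Within a group, the spread between libraries was wide for all 3 genes. In mock-treated *hvatr.g*, 2HG0195850 ranged from 280 CPM in replicate 1 to 596 CPM in replicate 3, 2HG0195860 from 47.5 to 133 CPM and 2HG0195920 from 48.6 to 139 CPM, with the same library lowest and the same library highest each time. The total counts of these libraries ran the opposite way, from 74699245 in replicate 1 to 41255896 in replicate 3. The part of depth in this spread was not tested. Over the 6 *hvatr.g* libraries the log2 CPM of the 3 genes had Pearson correlations of 0.97 to 0.99 with each other, which describes libraries that fall into a mock and a zeocin set and share their depth, and carries no p.

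The order of the groups was the same for the 3 genes at its upper end. Mock-treated *hvatr.g* was highest and zeocin-treated *hvatr.g* second, with no overlap between them or with WT. The order of the WT groups was not the same for the 3 genes, and these groups overlapped in each of them.

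The first comparison asked how the genotypes differ without induced damage. In mock-treated plants the lowest *hvatr.g* library was 291 times the highest WT library for 2HG0195850, 198 times for 2HG0195860 and 101 times for 2HG0195920. On the log2 scale the fitted differences between *hvatr.g* and WT were 9.55, 8.93 and 8.41, which placed the genes at ranks 2, 6 and 11 from the top of 26039. All 3 of 3 were beyond the thresholds used for the other genes (adjusted p < 0.05 with an absolute log2 fold change of 1 or more), which 3.86% of tested genes passed as higher in *hvatr.g*. Non-overlap with *hvatr.g* higher was found for 17.2% of tested genes. As the genes were picked with this contrast known, nothing is read from these counts.

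The fitted values rest on few WT counts. Summed over the 3 mock-treated WT libraries, 2HG0195850 had 64 counts (95% Poisson interval 49.29 to 81.73), 2HG0195860 had 21 (13.0 to 32.1) and 2HG0195920 had 31 (21.06 to 44.0). These intervals cover counting error only. For 2HG0195850 the fitted difference was 9.01 without replicate 1 of mock-treated WT, which had 4 counts, and 10.17 without replicate 3, which had 36.

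The same comparison under zeocin gave smaller differences. The mean level in *hvatr.g* was 174 times that in WT for 2HG0195850, 143 times for 2HG0195860 and 81.3 times for 2HG0195920. The lowest mutant library was still 107, 61.3 and 18.5 times the highest WT library, so the groups did not overlap. Fitted log2 differences were 7.45, 7.15 and 6.34, at ranks 4, 8 and 18 of 26039. All 3 genes passed the thresholds, where the share over all tested genes was 3.46% higher in *hvatr.g*, and 16.9% of genes did not overlap in that direction. This contrast was also known when the genes were picked, so nothing is read from these counts. Both genotype comparisons have their own WT and *hvatr.g* libraries and share none.

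**Figure D2:**
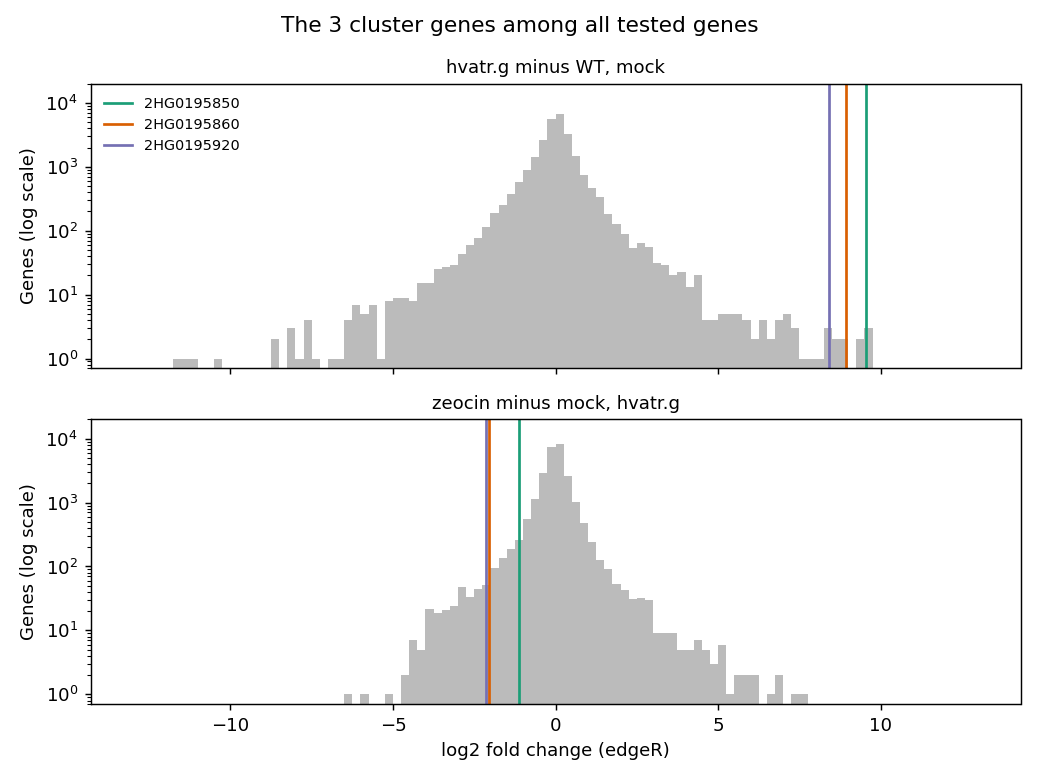
Histograms of the fitted log2 fold change of all 26039 tested genes (number of genes on a log axis) for *hvatr.g* against WT under mock treatment (top) and for zeocin against mock treatment in *hvatr.g* (bottom), with the 3 cluster genes as vertical lines. In the top panel the cluster genes, at 8.41 to 9.55, lie at the right end of the distribution. In the bottom panel, at -2.13 to -1.13, they lie in its left flank.

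The zeocin comparison in WT asked how roots with functional *ATR* respond to DNA damage, and the cluster genes had too few counts there to show a moderate change. 2HG0195850 had 64 summed counts after mock treatment and 123 (102.2 to 146.8) after zeocin, with a fitted log2 difference of 0.97. The highest mock-treated library, at 0.961 CPM, lay above the lowest zeocin-treated one, at 0.658 CPM. 2HG0195860 had 21 and 17 summed counts (9.903 to 27.22 after zeocin), and 2HG0195920 had 31 and 29 (19.42 to 41.65 after zeocin). Their fitted differences were -0.26 and -0.06, and the sign of each changed when single libraries were left out. None of the 3 genes passed the thresholds, against 1.12% of tested genes higher and 0.902% lower. None was free of overlap between the groups, against 6.98% of tested genes higher and 7.58% lower.

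In *hvatr.g* the zeocin-treated libraries were below the mock-treated ones for all 3 genes. The ratio of the mock to the zeocin mean was 2.18 for 2HG0195850, 4.11 for 2HG0195860 and 4.37 for 2HG0195920. The closest libraries of the groups differed by only 1.13, 1.59 and 1.46 times. Fitted log2 differences were -1.13, -2.04 and -2.13, at ranks 813, 268 and 249 from the lowest of 26039, so many genes differed by more in this comparison. Without replicate 2 of zeocin-treated *hvatr.g* the fitted differences were -0.96, -1.78 and -1.73. Over all tested genes 2.15% were called lower in this comparison and 14.1% did not overlap with zeocin lower. The mock-treated *hvatr.g* libraries are shared with the genotype comparison under mock treatment.

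Other transcripts moved with the zeocin treatment of the same libraries. *CYCB1;2.C*, a B-type cyclin of mitosis, had a mean of 66.5 CPM (range 59.5 to 79.2) in mock-treated *hvatr.g* and 7.21 CPM (3.49 to 9.80) after zeocin. *CDKB2;2*, a mitotic cyclin-dependent kinase, had 30.2 ± 6.65 and 6.13 ± 1.16 CPM (SD, n = 3). Both markers were also lower after zeocin in WT, from 54.1 ± 4.72 to 18.1 ± 4.86 CPM for *CYCB1;2.C* and from 20.8 ± 4.54 to 6.81 ± 0.0788 CPM for *CDKB2;2*. Their part in the lower level of the cluster genes was not tested.

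The difference between the zeocin responses of the genotypes (the interaction) was -2.10 for 2HG0195850, -1.78 for 2HG0195860 and -2.07 for 2HG0195920 on the log2 scale. Its WT side rests on the low counts above. Over all tested genes edgeR's quasi-likelihood test called none of 26039 (0.0%), with 1120 genes (4.3%) at an unadjusted p under 0.05, whereas DESeq2 called 17 higher and 96 lower.

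The counts were next divided between the genes, since reads may be shared between copies. Gene lengths were not used here, so shares of counts do not rank the genes by transcript number. Summed over the 3 genes, the mock-treated *hvatr.g* libraries held 28349, 32908 and 36149 counts, the zeocin-treated ones 12043, 6509 and 12247, and the WT libraries 23 to 70. On the CPM scale the sum was 610 ± 247 in mock-treated and 238 ± 70.9 in zeocin-treated *hvatr.g*, against 1.03 ± 0.416 and 1.54 ± 0.534 in WT (SD, n = 3).

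2HG0195850 took most of the cluster's counts in the mutant. Its share was 74.5%, 68.4% and 68.7% in the mock-treated libraries and 80.5%, 87.4% and 79.7% in the zeocin-treated ones. The shares did not overlap between the treatments, as follows from the larger zeocin difference of the other genes. The means were 70.5% ± 3.42 and 82.5% ± 4.22 (SD, n = 3). For every count of 2HG0195860 there were 4.33 to 5.90 counts of 2HG0195850 after mock treatment and 8.26 to 10.9 after zeocin.

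2HG0195860 and 2HG0195920 had nearly equal counts in most mutant libraries. Of the counts of this pair, 2HG0195860 had 49.4% (95% Wilson interval 48.26 to 50.56), 49.9% (48.98 to 50.9) and 48.9% (48.01 to 49.85) in mock-treated *hvatr.g*. In zeocin-treated *hvatr.g* it had 49.9% (47.9 to 51.93), 63.5% (60.2 to 66.77) and 47.4% (45.43 to 49.35). The value of 63.5%, from replicate 2 and 823 counts, lay outside the counting intervals of the other mutant libraries. How reads that fit both genes were assigned is not given in the sources used here, so an even division by the counting program and an equal level of the transcripts cannot be told apart.

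In WT the division varied with the few counts. The share of 2HG0195850 was 17.4%, 54.5% and 73.5% in the mock-treated libraries, on 23, 44 and 49 summed counts. It was 70.0%, 77.4% and 70.3% in the zeocin-treated libraries, on 70, 62 and 37 summed counts. The Wilson intervals of mock-treated WT replicates 1 (6.979% to 37.14%) and 2 (40.07% to 68.29%) lay below the shares of the mock-treated mutant, and that of replicate 3 (59.74% to 83.79%) held them.

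**Figure D3:**
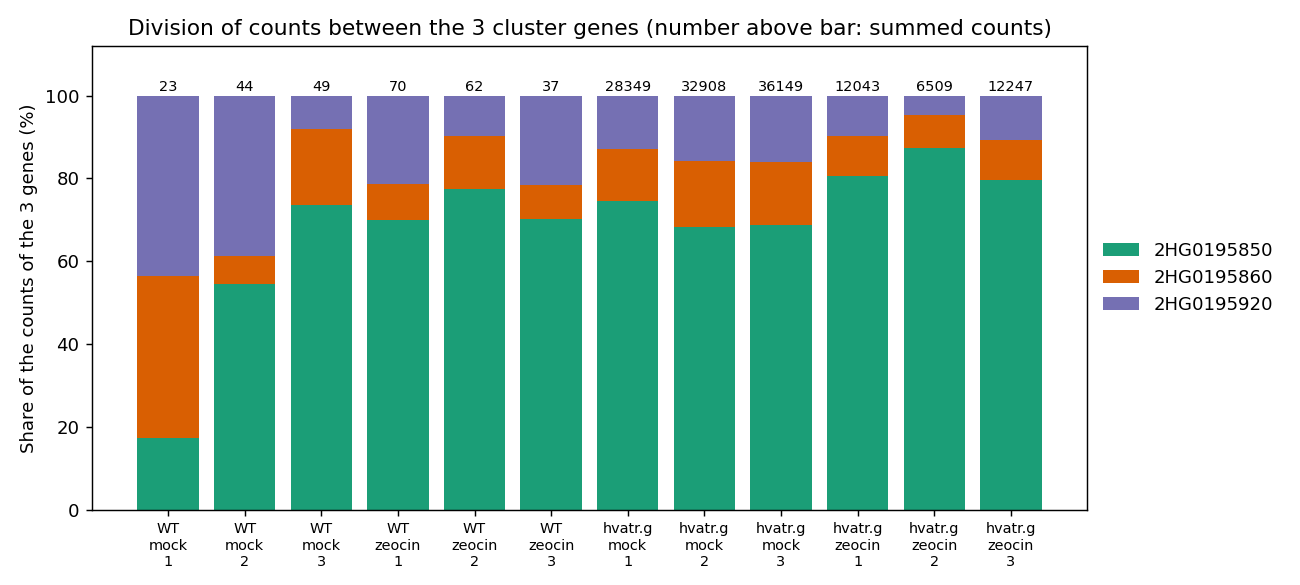
Share of the summed counts of the 3 cluster genes (percent, stacked bars from 0 to 100) taken by each gene in each of the 12 libraries, with the summed counts above each bar. In *hvatr.g* 2HG0195850 takes 68.4% to 87.4%, and the WT bars rest on 23 to 70 counts.

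A further 5 gene models carry numbers between those of the outermost members, and they did not share one pattern. 2HG0195870 and 2HG0195880 had at most 3 counts in any library and 2HG0195890 had 0 in all libraries. 2HG0195900 was close to the cluster genes in its pattern. It had 15, 22 and 65 counts in WT after mock treatment and 31, 30 and 65 after zeocin. In *hvatr.g* it had 2747, 5356 and 5405 after mock treatment and 1930, 965 and 1647 after zeocin.

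2HG0195900 is in that same peptide metabolic process list with the 3 members, so its values are a description too. Under mock treatment its mean was 87.2 ± 47.2 CPM in *hvatr.g* and 0.905 ± 0.730 CPM in WT (SD, n = 3). After zeocin the means were 34.9 ± 8.80 and 1.11 ± 0.461 CPM. The fitted log2 difference from WT was 6.59 under mock treatment, at rank 29 of 26039, and 4.96 under zeocin, at rank 31. Unlike the members, its mock-treated and zeocin-treated *hvatr.g* libraries overlapped, with 36.4 CPM in mock-treated replicate 1 against 38.0 and 41.7 CPM in zeocin-treated replicates 1 and 3. Over the 6 mutant libraries its log2 CPM had Pearson correlations of 0.92 to 0.95 with the members.

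2HG0195910, which lies between 2HG0195900 and 2HG0195920, went the opposite way. It had 129, 146 and 159 counts in mock-treated WT against 97, 114 and 114 in mock-treated *hvatr.g*, whose libraries were larger. Its mean was 3.82 CPM in WT and 2.02 CPM in *hvatr.g*, a log2 difference of -0.93 ± 0.272 (SE, n = 3) with an adjusted p of 0.0370 in edgeR's quasi-likelihood test. Under zeocin it had 3.04 and 1.60 CPM, again a log2 difference of -0.93 ± 0.278 (adjusted p = 0.0395, edgeR). The groups did not overlap in either treatment. Both differences were short of the log2 threshold of 1.

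The identifiers of the count table number genes along the chromosome, so the surroundings were described by gene number. Within 20 gene numbers on each side of the cluster lay 45 other genes, of which 19 were tested. Only 2HG0195900, whose values are a description, was called higher in *hvatr.g*, in both genotype comparisons. Over all tested genes 3.86% were called higher under mock treatment and 3.46% under zeocin. None of the 19 was called lower, a call made for 4.58% of tested genes under mock treatment and 5.56% under zeocin. DESeq2 gave the same counts and limma-voom 1 lower under mock treatment. Without 2HG0195900, edgeR called none of 18 neighbours in either comparison, with 5 and 4 of them at an unadjusted p under 0.05. At an adjusted p under 0.05 alone, 3 of these 18 passed under mock treatment, where 15.7% of tested genes did, and 3 under zeocin, against 16.6%. Their median log2 difference was -0.04 (range -0.93 to 0.77) under mock treatment and -0.12 (-0.93 to 0.60) under zeocin, with a median over all tested genes of 0.02 and 0.00. Of the 19 neighbours, edgeR, DESeq2 and limma-voom called 0 in either zeocin comparison, with 3 at an unadjusted p under 0.05 in each. 2HG0195900 was among the 3 in *hvatr.g*. A window of 50 gene numbers, given in the closing section, held more genotype calls in both directions.

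**Figure D4:**
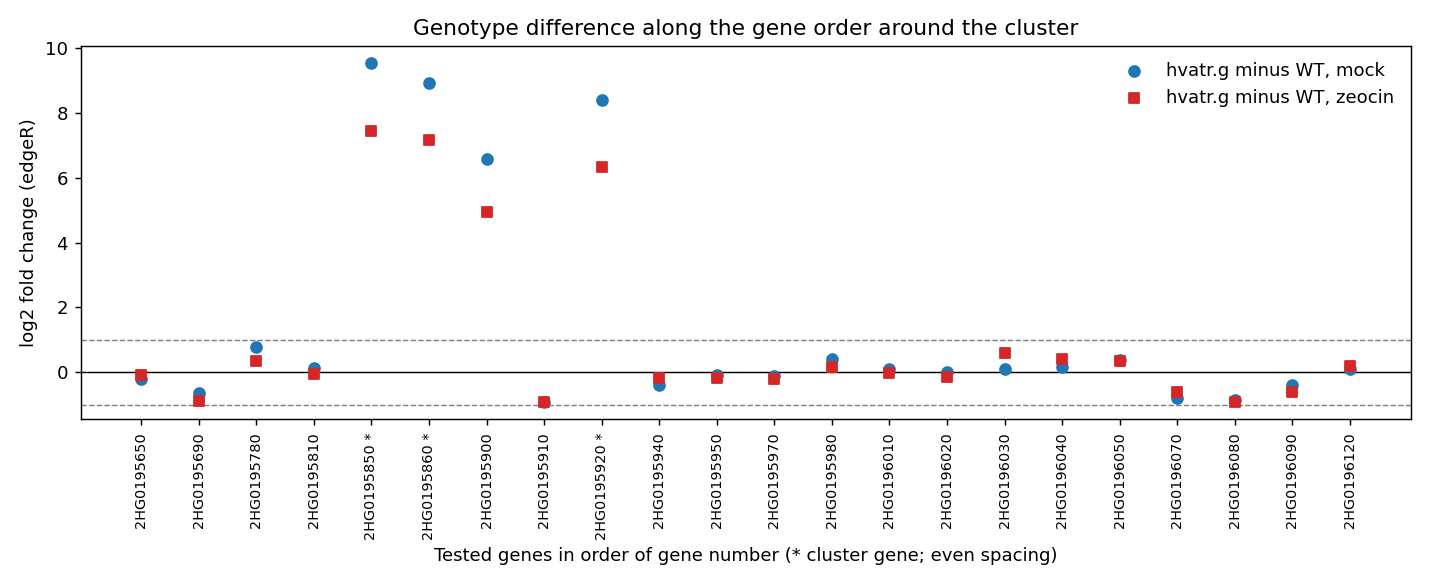
Fitted log2 fold change of *hvatr.g* against WT under mock treatment (circles) and zeocin (squares) for the tested genes within 20 gene numbers of the cluster, in gene order with even spacing. Dashed lines mark log2 differences of 1 and -1. The cluster genes and 2HG0195900 lie between 4.96 and 9.55, and every other neighbour lies between -0.93 and 0.77.

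Small differences were found on both sides of the cluster. 2HG0196050 was higher in *hvatr.g*, with 42.4 against 32.3 CPM under mock treatment (log2 difference 0.39 ± 0.0970, SE, adjusted p = 0.0176) and 50.4 against 39.8 CPM under zeocin (0.34 ± 0.0969, adjusted p = 0.0328, both edgeR). 2HG0195780 was higher under mock treatment, with 3.27 against 1.92 CPM (0.77 ± 0.239, adjusted p = 0.0480, edgeR), and 2HG0196090 was lower under zeocin, with 20.1 against 30.7 CPM (-0.61 ± 0.188, adjusted p = 0.0440, edgeR). None of these reached the fold change threshold. Of the 19 tested neighbours, 15.8% were higher and 26.3% lower without overlap between the genotypes under mock treatment, and 21.1% and 26.3% under zeocin. The shares over all tested genes were 17.2% and 15.6% under mock treatment and 16.9% and 19.4% under zeocin. Besides the genes above, 2HG0195940, 2HG0196070, 2HG0196080 and 2HG0196090 were lower without overlap under mock treatment. Under zeocin 2HG0195780 and 2HG0196030 were higher and 2HG0195950, 2HG0195970 and 2HG0196070 lower. Their adjusted p in these comparisons was above the threshold in edgeR, at 0.0790 to 0.385.

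Other genes of the ubiquitin pathway were read from lists. The first holds 8 genes for E2 enzymes and an E2 variant from a catalogue of DNA damage response genes made by homology. They comprise *UBC2.A* to *UBC2.D*, whose yeast counterpart RAD6 attaches ubiquitin to a replication clamp at damaged DNA, *UBC36.A* to *UBC36.C*, and *UEV1D-4*, a variant that lacks catalytic activity and works beside UBC36-type enzymes. All 8 were tested, and edgeR, DESeq2 and limma-voom called 0 in each comparison, with 2 of the 8 at an unadjusted p under 0.05 in edgeR for the genotypes under zeocin and 0 elsewhere. The median log2 difference between *hvatr.g* and WT was -0.17 (range -0.25 to -0.06) under mock treatment and -0.23 under zeocin, and all 8 lay below 0 in both. The median zeocin difference was 0.16 in WT and 0.11 in *hvatr.g*. *UBC2.D*, for example, had 315 ± 72.3 CPM in WT and 297 ± 24.4 CPM in *hvatr.g* under mock treatment (SD, n = 3).

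RAD23 proteins bind ubiquitin chains and carry marked proteins to the proteasome. Of the 4 *RAD23* genes, 3 were tested, and edgeR, DESeq2 and limma-voom called 0 in each comparison, with 1 at an unadjusted p under 0.05 in edgeR (genotypes under zeocin) and with log2 differences between *hvatr.g* and WT of -0.11 to 0.21 under mock treatment. Under mock treatment, 1 *RAD23* gene instead of 0 was called higher when any one of 9 of the 12 libraries was left out. The count was also 1 without a filter on low counts. The tested gene with the largest mock difference had 56.7 to 68.4 CPM in WT and 66.7 to 76.3 CPM in *hvatr.g*. Leaving out a library cannot bring such values to the log2 threshold of 1. This leaves *RAD23B.B* (HORVU.MOREX.r3.6HG0569510), which had too few counts for the main fit, as the gene called there. It had 36, 10 and 6 counts in mock-treated and 6, 12 and 6 in zeocin-treated *hvatr.g*. In WT it had 0, 1 and 1 counts after mock treatment and 1, 1 and 4 after zeocin. The paper gives this identifier for *RAD23* and reports *RAD23* as up-regulated in *hvatr.g*.

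A further 13 genes have the word ubiquitin in their description in a list that the study picked on these libraries. The paper ties this list to genes whose expression zeocin changed significantly in WT or *hvatr.g*. Their zeocin counts are therefore a description, and none of their counts is independent evidence of a direction. In mock-treated plants 1 of 13 was called higher in *hvatr.g* and none lower, against 3.86% and 4.58% of tested genes. The gene called was HORVU.MOREX.r3.5HG0443470, described as related to ubiquitin carboxyl-terminal hydrolases, enzymes that remove ubiquitin. It had 1.33 against 0.540 CPM, a log2 difference of 1.29 ± 0.399 (SE, n = 3, adjusted p = 0.0472, edgeR), and was not called when any one of 9 of the 12 libraries was left out. Under zeocin 2 were called higher and 2 lower in *hvatr.g*, against 3.46% and 5.56% of tested genes. Zeocin raised 4 and lowered 2 in WT, and raised 5 and lowered 5 in *hvatr.g*. With the replicate number as a block, 1 was lowered in WT. The shares called over all tested genes were 1.12% and 0.902% in WT and 1.29% and 2.15% in *hvatr.g*. As the zeocin response fixed the list, nothing is read from the zeocin counts.

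Single genes of this list moved in both directions after zeocin, and the 3 given here were picked with their values in view. The list itself rests on the zeocin response, so their values are a description and carry no p. HORVU.MOREX.r3.7HG0736330, a gene annotated as ubiquitin hydrolase, rose from 0.0545 to 8.56 CPM in WT and from 0.148 to 7.11 CPM in *hvatr.g*. HORVU.MOREX.r3.5HG0443470 rose from 0.540 to 3.02 CPM in WT (log2 difference 2.46 ± 0.398, SE) and from 1.33 to 9.16 CPM in *hvatr.g* (2.78 ± 0.368). The E2 gene HORVU.MOREX.r3.3HG0256380 was lower after zeocin in both genotypes. It had 33.0 against 82.9 CPM in WT (log2 difference -1.33 ± 0.208, SE) and 14.1 against 71.3 CPM in *hvatr.g* (-2.34 ± 0.216).

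The peptide metabolic process list, which the study drew from genes higher in mock-treated *hvatr.g*, holds 33 genes besides the members. As that contrast fixed the list, its counts there are a description. All 33 were higher in *hvatr.g* under mock treatment, with a median log2 difference of 2.48 against 0.02 over all tested genes. Of the 33, 32 were called higher, where 3.86% of tested genes were. Under zeocin 26 were called higher and none lower, with a median of 1.68, where 3.46% and 5.56% of tested genes were called. A block of replicate number within each genotype, chosen after seeing the data, gave 17 higher. Zeocin raised 6 and lowered none in WT, against 1.12% and 0.902% of tested genes, and raised 4 and lowered 1 in *hvatr.g*, against 1.29% and 2.15%. The *hvatr.g* counts have no stable balance: without mock-treated replicate 1 it was 2 raised and 8 lowered, and over single libraries left out 1 to 4 were raised and 0 to 8 lowered. In WT 3 to 7 were raised, with 3 when mock-treated replicate 1 or 2 or zeocin-treated replicate 1 was left out.

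Genes with the profile most like the cluster were found by the Pearson correlation of their log2 CPM with the mean of the 3 members over the 12 libraries. The 5 nearest were HORVU.MOREX.r3.2HG0105790 (r = 0.997), HORVU.MOREX.r3.7HG0726420 (0.993), HORVU.MOREX.r3.4HG0348880 (0.992), HORVU.MOREX.r3.3HG0240960 (0.992) and HORVU.MOREX.r3.1HG0077410 (0.990). They lie on different chromosomes except for 2HG0105790, which is on 2H but outside the window around the cluster. The paper names 2HG0105790 as *CDC48*, reports it as up-regulated in *hvatr.g* and ties it to protein degradation. Its fitted log2 difference from WT was 7.26 under mock treatment and 5.58 under zeocin. It is in none of the E2, *RAD23* and ubiquitin-described lists above, so those lists do not cover the whole pathway. The libraries form clusters by genotype and share their depth, so the correlations describe likeness and carry no p.

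These genes were chosen for this likeness, and all 5 had few or no counts in WT, but the size of the step between the genotypes varied. 2HG0105790 had 8 to 19 counts in the WT libraries, 2200 to 2827 in mock-treated *hvatr.g* and 550 to 1373 in zeocin-treated *hvatr.g*. HORVU.MOREX.r3.4HG0348880 had 7 to 40 counts in WT, 8429 to 12175 in mock-treated and 2307 to 4802 in zeocin-treated *hvatr.g*. HORVU.MOREX.r3.7HG0726420 had 0 counts in every WT library, 30 to 49 in mock-treated and 9 to 16 in zeocin-treated *hvatr.g*. The remaining genes had smaller fitted differences than the members under mock treatment, 5.51 for HORVU.MOREX.r3.3HG0240960 (4 to 14 counts in mock-treated WT and 613 to 775 in mock-treated *hvatr.g*) and 5.50 for HORVU.MOREX.r3.1HG0077410 (2 to 3 and 122 to 186 counts), against 8.41 to 9.55 for the cluster. Within the 6 mutant libraries alone, where the step between genotypes plays no part, the correlations of the 5 genes with the cluster ran from 0.813 to 0.982. These libraries were part of the choice and still hold the step between mock and zeocin treatment. All 5 genes were lower after zeocin there, as the members were, with fitted log2 differences of -1.19 to -0.53. The neighbour 2HG0195900 came at rank 13 of the order over the 12 libraries, with r = 0.983 over these and 0.939 over the 6.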

How the data were processed

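Poly(A) RNA-seq counts of 12 barley root apex libraries were used, 3 in each of 4 groups set by GEO's labels. The authors trimmed the read pairs, aligned them with HISAT2 (2.1.0 per the submitters' processing notes) to the third Morex genome version and counted reads per transcript model with Subread 1.5.2. They deposited raw counts without normalization. The treatment of strand and of multi-mapping reads is not given in the sources used here. Every sample column was used (0 unused). The table gives no coordinates, and 0 of its identifiers matched the RefSeq table at hand, so no sequence, length or position is printed.

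Counts were analysed in R 4.3.3 with edgeR 4.0.16 (filterByExpr, TMM, glmQLFit and glmQLFTest over all 12 libraries with group as the only term, common dispersion 0.0457). The p-values were adjusted by Benjamini-Hochberg over 26039 genes. Genes were called at an adjusted p under 0.05 and an absolute log2 fold change of at least 1 (the interaction without a fold threshold). Log2 CPM used a prior count of 2. The fit was tested on simulated data. Summaries used pandas 2.3.3, scipy 1.17.1 and numpy 2.4.6 under Python 3.11.15, and plots matplotlib 3.10.9. Alternatives included DESeq2 1.42.0 and limma 3.58.1 (voom), other scalings and filters, a replicate block, summed members, other windows and leaving out each library.

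Members, lists and rules were chosen with earlier results of these data known. Genes named are the members, neighbours within 20 gene numbers that were called or did not overlap between the genotypes, listed genes called, and the 5 most alike. The E2 and *RAD23* genes were to be named where called, and *RAD23B.B* and *UBC2.D*, like the ubiquitin-described genes given by value, were named after their values were seen. Same-numbered libraries deviated together in WT (correlations of deviations 0.312, 0.3825 and 0.5429 between mock and zeocin). The correlations were lower in *hvatr.g* (0.1767, 0.0268 and 0.1745) and between genotypes (-0.0468 to 0.2736). The main fit did not use this pairing in WT, so its WT zeocin values are unpaired. The replicate number entered only as a block in alternative fits.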

Additional observations from a re-analysis of the deposited data

How the results depend on the processing

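Over the 1436 alternative values of the comparisons, 1372 stayed within the spread or within 1.5 times, 64 moved further and none of the member values turned its direction beyond that spread. The fitted mock genotype difference ran from 9.01 to 10.17 for 2HG0195850, 8.56 to 9.24 for 2HG0195860 and 8.01 to 9.02 for 2HG0195920 with single libraries left out. The zeocin difference in WT ran from -0.59 to 0.09 for 2HG0195860 and from -0.55 to 0.55 for 2HG0195920, so it has no stable sign. With the members and 2HG0195900 summed into 1 feature, an alternative chosen after seeing the data, the summed feature had a zeocin genotype difference of 6.69, against 7.45 for 2HG0195850 on its own. The cause of the other changes below was not tested.

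Within 50 gene numbers, where 61 neighbours were tested, 4 were called higher and 6 lower under mock treatment. Under zeocin 4 were called higher and 4 lower. The shares over all tested genes were 3.86% higher and 4.58% lower under mock treatment, and 3.46% and 5.56% under zeocin. Within 20 gene numbers, lower neighbours under mock treatment were 1 with limma-voom and 0 to 1 without single libraries. They were 0 to 1 under zeocin. For zeocin in *hvatr.g* they were 1 without a filter and 0 to 1 without single libraries. Higher *RAD23* genes under mock treatment were 1 without a filter and 0 to 1 without single libraries, with 1 in 9 of 12 cases. As given above, this call is *RAD23B.B*, which had too few counts for the main fit. Higher ubiquitin-described genes under mock treatment were 0 with limma-voom, 0 with only the 6 libraries compared and 0 to 1 without single libraries, and 1 to 3 under zeocin. Those lowered by zeocin in WT were 1 by library size only, 4 with DESeq2, 1 with limma-voom and 1 to 2 without single libraries, and in *hvatr.g* 3 to 5. Peptide list genes raised by zeocin in WT were 3 with limma-voom, 3 with 6 libraries and 3 to 7 without single libraries. In *hvatr.g* 1 to 4 were raised and 0 to 8 lowered without single libraries, with 8 lowered without mock replicate 1, and 2 were lowered with DESeq2 and 5 without a filter. DESeq2 gave 1 lower in the interaction.

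When the replicate number entered as a block, the count of ubiquitin-described genes lowered in WT fell to 1. A block within each genotype, chosen after seeing the data, gave 1 there, 1 lower neighbour under mock treatment, 2 higher neighbours under zeocin and 17 peptide list genes higher under zeocin. The block changed no other count beyond 1.5 times except that of all genes higher under zeocin. That count, 900, was 545 with the block within genotypes and 552 without zeocin-treated *hvatr.g* replicate 3 (552 to 1006 over single libraries). Zeocin in WT raised 292 genes, or 190 with 6 libraries, and lowered 235, or 125 without zeocin replicate 1 and 150 without mock replicate 2 (125 to 298 over single libraries). The interaction had 17 higher and 96 lower genes with DESeq2, 1 and 0 with limma-voom, 4 and 29 without a filter, and 0 to 1 lower without single libraries. It could not be had from only 6 libraries. By Spearman, 1 of the 5 most alike genes was shared.

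The main limits are the few WT counts of the cluster genes, for which fold changes depend on single libraries, and reads that copies may share. With the members summed, the mock genotype difference was 9.21 and the zeocin difference in *hvatr.g* -1.35. *hvatr.g* is 1 line, so effects of *ATR* and of other differences between the line and Sebastian cannot be told apart. Gene lengths and sequences were not used here.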
